A study of Mus musculus with 8 samples.

Results

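The endothelial genes of coagulation and anticoagulation were examined by RNA sequencing in mouse microvascular endothelial cells with and without the receptor LRP1. The 8 genes were taken by name from the roles of their products and not by a measured value, though with earlier results of these data known, and all 8 were among the 22520 genes in the table. They were Vwf (von Willebrand factor), F3 (tissue factor), Tfpi (tissue factor pathway inhibitor), F2r (the thrombin receptor PAR1), Thbd (thrombomodulin), Procr (the endothelial protein C receptor), Gas6 and Pros1 (protein S). Knockout libraries (LRP1 KO) came from Lrp1 f/f; Cdh5-CreER+/- mice and wild-type libraries (WT) from Lrp1 f/f; Cdh5-CreER-/- littermates, so both groups carried the floxed Lrp1 alleles and only LRP1 KO carried the recombinase. The Cdh5 promoter directs the recombinase to endothelial cells. Each of the 4 LRP1 KO and 4 WT libraries was labelled as a mixture of heart, liver and lung cells from C57BL/6 mice at postnatal day 14, and the study's methods describe selection with beads against PECAM-1. The study treats liver cells and heart and lung cells as separate preparations and does not say that they were pooled, so whether each value stands for a mixture of the 3 organs rests on the labels alone. How many mice went into a library was not given in the sources used here, so p-values measure the spread between these libraries, which may in part be technical.

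The vessel wall holds both the start and the brakes of clotting. Tissue factor binds factor VIIa and starts the cascade that makes thrombin, and TFPI blocks that first complex. Thrombin signals to the cell through PAR1, but once it is bound by thrombomodulin it activates protein C, which is held at the endothelial surface by EPCR, the product of Procr, and with protein S as a cofactor destroys clotting factors Va and VIIIa. Protein S and GAS6 are related proteins that carry a vitamin K-dependent Gla domain. Both are ligands within the TAM receptor family, whose members are TYRO3, AXL and MERTK, though not each of every member. Von Willebrand factor is stored in the Weibel-Palade bodies of endothelial cells, tethers platelets and carries factor VIII in plasma. LRP1 is known to take up several ligands of this system, among them TFPI and factor VIII.

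Values are FPKM (fragments counted per kilobase of gene and scaled to the library), quantile normalized across libraries, so that levels can be compared between genes per length. Sequencing depth is unknown. Lrp1 itself had FPKM values of 103 to 140.4 in WT against 2.79 to 7.72 in LRP1 KO, whose mean was 3.99% of that in WT, with a limma log2 fold change of -4.45 and an adjusted p of 8.89e-05. The labelled cell type was less clear. Pecam1 and Cdh5, which encode the endothelial adhesion molecules PECAM-1 and VE-cadherin, averaged 14.9 and 18.7 FPKM over the 8 libraries, above 57.5% and 63.8% of the tested genes, while the mesothelial genes Msln and Upk3b averaged 1081 and 351 FPKM. Of the fibroblast genes, Pdgfra had FPKM values of 37.4 to 50.9 in WT against 14.2 to 37.7 in LRP1 KO, and Col1a1 averaged 484 FPKM over the 8 libraries. All 18 genes of the endothelial list were in the table, and 15 had a WT mean of at least 1 FPKM. Their summed level was 173 to 188 FPKM in WT and 633, 398, 467 and 179 in LRP1 KO libraries 1 to 4, so 3 LRP1 KO libraries were above every WT library and library 4 lay within the WT range. All 15 tested endothelial markers had higher estimates in LRP1 KO, and 1 of them was called. LRP1 KO library 4 therefore stands apart, and without it 14 of the 15 were called, all higher.

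Other marker lists moved as well. The 7 mesothelial genes summed to 2416 to 2823 FPKM in WT and 2083 to 2348 in LRP1 KO, with 6 estimates lower and 3 called lower. The 18 macrophage genes summed to 90.9 to 117 FPKM in WT and 245 to 596 in LRP1 KO, and 10 of the 12 tested were called higher. Among those called, Adgre1, Mrc1 and Cd5l, at no more than 0.675 FPKM in WT, passed the filter only through the LRP1 KO libraries. Their calls as higher are therefore not independent of the filter, and they were not tested without LRP1 KO library 4. Mrc1 and Cd5l were named after their values were seen. The 12 fibroblast genes summed to 2843 to 4131 and 2612 to 3836 FPKM, with 1 called higher and 2 lower, and the 10 mural genes to 667 to 833 and 1033 to 1617 FPKM, with 3 of 7 tested called higher. Platelet, hepatocyte, cardiomyocyte, lung epithelial and neutrophil lists summed to 3.11 to 6.53, 13.6 to 30.8, 90.6 to 156, 16.9 to 40.8 and 0.518 to 3.91 FPKM over both groups, with the hepatocyte list at 13.6 to 14.8 FPKM in WT and 13.8 to 30.8 in LRP1 KO, and the 5 lists held 2 genes called higher and 1 called lower. Ppbp of platelets was listed at 0 in all 8 libraries and Alb of hepatocytes was at no more than 0.108 FPKM, but Pf4 of platelets, at 0.623 to 0.725 FPKM in WT and 0.825 to 2.75 in LRP1 KO, and Ahsg of hepatocytes, at 10.1 to 11.1 and 11.5 to 27.2 FPKM and called higher (limma adjusted p 0.0326), were above WT in every LRP1 KO library. Without LRP1 KO library 4, 5 mesothelial genes were called lower, 6 macrophage genes higher and 1 lower of 9 tested, 1 fibroblast gene higher and 6 lower, and 5 mural genes higher. Ahsg was named after its values were seen. It made up most of the hepatocyte sum, with means of 10.5 FPKM in WT and 21.6 in LRP1 KO. The only other hepatocyte gene tested, Apoa2, had a lower estimate (-0.26) and was not called. The mean log2(FPKM + 1) over the hepatocyte list overlapped between groups, at 0.554 to 0.659 in WT and 0.513 to 0.708 in LRP1 KO. In such bulk samples fewer cells of a type and less RNA per cell cannot be told apart, and the part that these cell types play in the values below was not tested beyond the fits that take a marker score as a covariate.

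**Figure D1:**
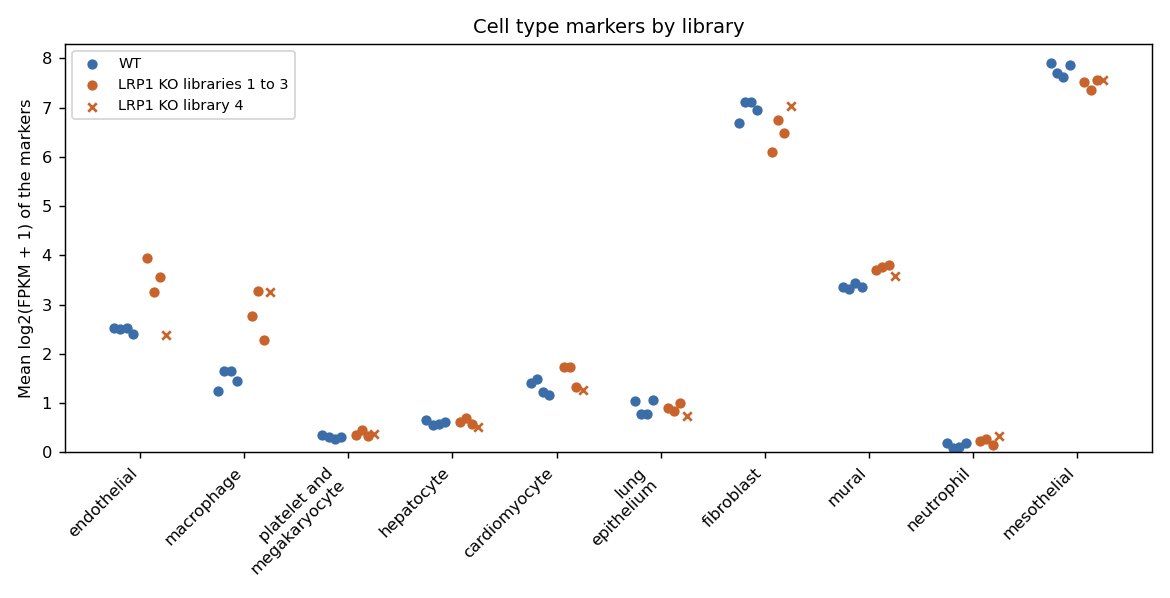
Marker scores by library, each the mean log2(FPKM + 1) over a list of marker genes, for 4 WT and 4 LRP1 KO libraries. The endothelial score was 2.40 to 2.53 in WT and 3.96, 3.25, 3.57 and 2.39 in LRP1 KO libraries 1 to 4, and the mesothelial score was 7.63 to 7.90 in WT and 7.36 to 7.57 in LRP1 KO.

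Among the 8 genes the levels per length covered a wide range. Gas6 was the highest, with a mean over the 8 libraries of 585.6 FPKM, which exceeded or equalled 98.7% of the 11389 tested genes. It was followed by F3 at 74.5 FPKM, F2r at 66.3, Tfpi at 63.1, Thbd at 59.9, Procr at 45.3 and Pros1 at 42.6, and Vwf was last at 1.86 FPKM, above only 7.81% of the tested genes. Gas6 stood clear of the next gene and Vwf of the one before it in both groups. In WT, taking neighbours in this order, F3 and F2r did not overlap, nor did F2r and Tfpi, of which Tfpi was the higher there, nor Tfpi and Thbd, whereas in LRP1 KO no neighbours between F3 and Pros1 were apart. F2r was the fourth highest of the genes in WT and the second highest in LRP1 KO. All 8 genes passed the filter of at least 1 FPKM in at least 4 libraries.

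**Figure D2:**
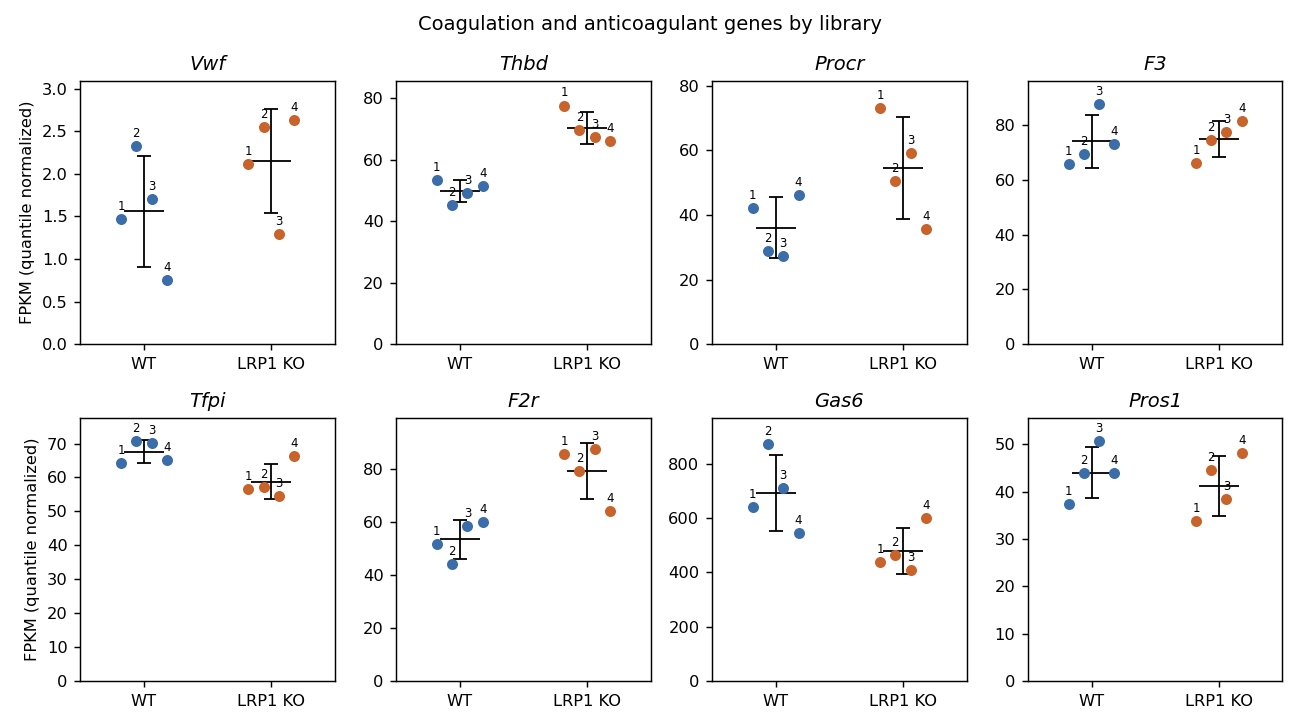
FPKM of the 8 genes in each library, with 1 panel per gene on its own linear axis from 0, points numbered by library, and black bars for the group mean ± SD (n = 4). Thbd and F2r were the genes whose LRP1 KO libraries all lay above their WT libraries.

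Of the 8 genes, 2 were called changed in LRP1 KO at an adjusted p under 0.05, namely Thbd and F2r, both higher. Over all 11389 tested genes 13.6% were called, 6.27% as higher and 7.31% as lower. The same genes were the 2 whose groups did not overlap, again both higher, against 19.6% of all tested genes that did not overlap (8.84% with LRP1 KO higher and 10.7% with LRP1 KO lower). None of the 8 changed by 2-fold, which 1.62% of tested genes did with a call. Estimates were higher in LRP1 KO for 5 genes and lower for 3, and the median log2 fold change was 0.17, beside -0.0091 over all tested genes. Without LRP1 KO library 4, 5 of the 8 genes were called, with Procr higher and Tfpi and Gas6 lower in addition, and 2959 of the tested genes were called in place of 1547, or 26.2% (12.3% higher and 13.9% lower).

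**Figure D3:**
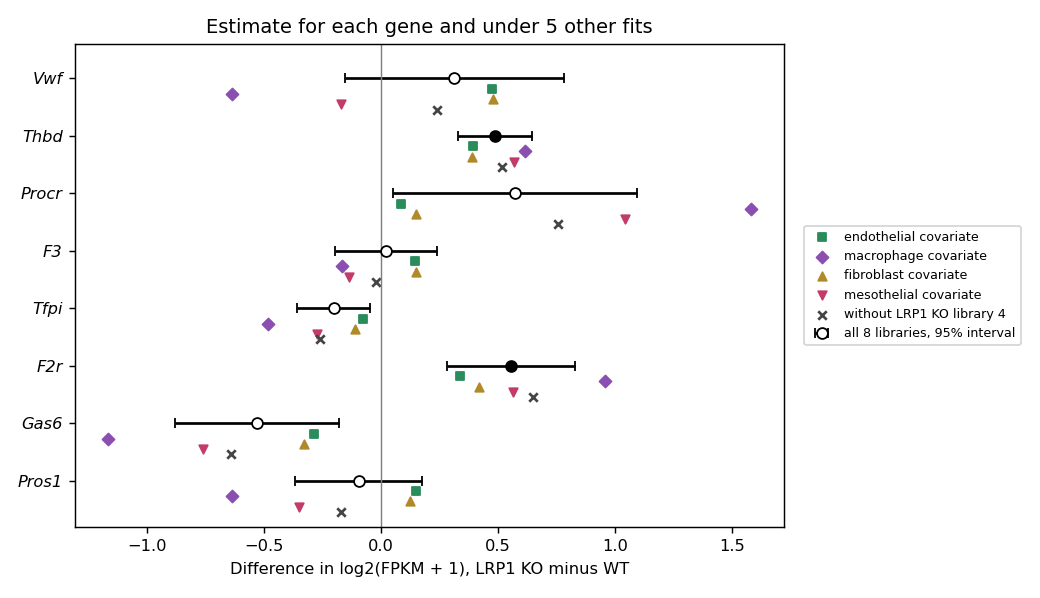
Log2 fold change of each gene in LRP1 KO against WT on the log2(FPKM + 1) scale, as circles with 95% confidence intervals from limma over 4 and 4 libraries, filled where called. The other symbols are the estimates with each of 4 marker scores as a covariate and without LRP1 KO library 4. Thbd at 0.49 and F2r at 0.56 passed the adjusted p of 0.05, and the intervals of Vwf, F3 and Pros1 included 0.

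The receptors for thrombin and protein C were the genes with the highest estimates. Thbd (chr2:148404466-148408188, minus strand, a gene with 1 exon) had FPKM values of 53.3, 45.1, 49.1 and 51.5 in WT libraries 1 to 4 against 77.6, 69.6, 67.4 and 65.9 in LRP1 KO libraries 1 to 4. The LRP1 KO libraries all exceeded the highest WT library, library 4 included, and the spread within a group was small. The mean rose from 49.7 ± 3.53 to 70.1 ± 5.19 FPKM (SD, n = 4 each), 1.41 times the WT mean. The log2 fold change was 0.49 (SE 0.07, 95% interval 0.33 to 0.65) with a limma adjusted p of 0.00482, and the exact two-sided permutation p over the 70 splits was 0.0286, the smallest that 4 against 4 allows. Thbd was called in all 8 fits that left out a library, with log2 fold changes of 0.44 to 0.52. The estimate stayed at or above 0.39 when a marker score was added as a covariate, but the call ended with the endothelial score (0.39, limma adjusted p 0.0934), the macrophage score (0.61, limma adjusted p 0.0884) and the mesothelial score (0.57, limma adjusted p 0.202). Thrombomodulin is also known from mesothelial cells. The mesothelial score was itself apart between the groups, so the fit with it cannot separate these cells from the group. Their part in the Thbd level was not tested.

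F2r (chr13:95601803-95618487, minus strand, 2 exons), the gene of PAR1, had FPKM values of 51.6, 44.0, 58.3 and 60.1 in WT against 85.7, 79.1, 87.4 and 64.1 in LRP1 KO. LRP1 KO libraries 1 to 3 were well above WT, and library 4 exceeded the highest WT library only slightly. The mean rose from 53.5 ± 7.35 to 79.1 ± 10.6 FPKM (SD, n = 4 each), 1.48 times the WT mean, with a log2 fold change of 0.56 (SE 0.12, 95% interval 0.28 to 0.83), a limma adjusted p of 0.0218 and an exact permutation p of 0.0286. The call ended in 5 of the 8 fits that left out a library, namely without WT 1 or 2 or without LRP1 KO 1, 2 or 3, at adjusted p of 0.0535 to 0.0674, while the estimates stayed between 0.47 and 0.65. It also ended with each marker covariate, at 0.34 with the endothelial score (limma adjusted p 0.401), 0.42 with the fibroblast score (0.129), 0.56 with the mesothelial score (0.339) and 0.96 with the macrophage score (0.0866).

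Procr (chr2:155751117-155755471, plus strand, 4 exons) had the largest estimate of the 8 genes but also the widest spread among those above 10 FPKM. It had FPKM values of 42.2, 28.8, 27.3 and 46.1 in WT against 73.1, 50.4, 59.2 and 35.5 in LRP1 KO. LRP1 KO libraries 1 to 3 were above all WT libraries, in the order of their endothelial scores, and library 4 was below WT libraries 1 and 4. Means were 36.1 ± 9.46 and 54.6 ± 15.8 FPKM (SD, n = 4 each), with a log2 difference of 0.57 (SE 0.23, 95% interval 0.05 to 1.09), a limma adjusted p of 0.120 and an exact permutation p of 0.114. Without LRP1 KO library 4 the log2 difference was 0.76 and the limma adjusted p 0.0242. With a covariate the estimate was 0.09 (endothelial score), 0.15 (fibroblast score), 1.04 (mesothelial score) and 1.58 (macrophage score), none of them called.

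Tissue factor and its inhibitor did not pass the test. F3 (chr3:121723537-121735048, plus strand, 6 exons) had FPKM values of 65.7, 69.5, 87.8 and 73.2 in WT against 66.1, 74.6, 77.4 and 81.6 in LRP1 KO, so that the LRP1 KO values lay within the WT range. Its means were 74.0 ± 9.65 and 74.9 ± 6.55 FPKM (SD, n = 4 each), and the log2 difference of 0.02 (SE 0.10) had a 95% interval of -0.20 to 0.24, with a limma adjusted p of 0.900. Tfpi (chr2:84432855-84476775, minus strand, 8 exons) had FPKM values of 64.1, 70.8, 70.2 and 65.1 in WT against 56.5, 57.3, 54.7 and 66.3 in LRP1 KO. LRP1 KO libraries 1 to 3 were below all WT libraries and library 4 was among them. Means of 67.6 ± 3.43 and 58.7 ± 5.17 FPKM (SD, n = 4 each) gave a log2 difference of -0.20 (SE 0.07, 95% interval -0.36 to -0.05), a limma adjusted p of 0.0799 and an exact permutation p of 0.0857. Without LRP1 KO library 4 the difference was -0.26 with a limma adjusted p of 0.0116, and with a covariate it was -0.08 (endothelial score), -0.11 (fibroblast score), -0.27 (mesothelial score) and -0.48 (macrophage score), none of them called.

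The ligands of the TAM receptors differed in level by over an order of magnitude. Gas6 (chr8:13465374-13494490, minus strand, 15 exons) had FPKM values of 642, 874, 711 and 545 in WT against 439.5, 465, 408 and 599.9 in LRP1 KO. LRP1 KO libraries 1 to 3 were below all WT libraries, and library 4 was above WT library 4. The LRP1 KO mean of 478 ± 84.4 FPKM was 69.0% of the WT mean of 693 ± 139 (SD, n = 4 each), with a log2 difference of -0.53 (SE 0.16, 95% interval -0.88 to -0.18) that just missed the threshold at a limma adjusted p of 0.0531, and an exact permutation p of 0.0571. It passed without WT library 4 (-0.64, limma adjusted p 0.0390) and without LRP1 KO library 4 (-0.64, limma adjusted p 0.0120). With a covariate the difference was -0.29 (endothelial score), -0.33 (fibroblast score), -0.76 (mesothelial score) and -1.17 (macrophage score), none of them called. Gas6 overlaps Tmem255b on the other strand, which was at no more than 0.0635 FPKM, and no other of the 8 genes overlaps another gene. Pros1 (chr16:62854307-62929346, plus strand, 15 exons) had FPKM values of 37.4, 44.0, 50.6 and 43.9 in WT against 33.8, 44.5, 38.5 and 48.1 in LRP1 KO, with broadly overlapping groups. Its means were 44.0 ± 5.40 and 41.2 ± 6.34 FPKM (SD, n = 4 each), with a log2 difference of -0.10 (SE 0.12, 95% interval -0.37 to 0.17) and a limma adjusted p of 0.610. Without LRP1 KO library 4 the difference was -0.17, and without LRP1 KO library 1 it was -0.0064. The sign turned with the endothelial (0.15) and fibroblast (0.13) scores as covariates, and the difference was -0.35 with the mesothelial and -0.64 with the macrophage score, none of them called.

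Vwf (chr6:125546774-125686679, plus strand, 52 exons) was barely expressed for a gene that marks endothelium. It had FPKM values of 1.47, 2.33, 1.71 and 0.748 in WT against 2.12, 2.55, 1.30 and 2.63 in LRP1 KO, with overlapping groups. Means were 1.56 ± 0.653 and 2.15 ± 0.611 FPKM (SD, n = 4 each), and the log2 difference of 0.31 (SE 0.21, 95% interval -0.16 to 0.78) had a limma adjusted p of 0.317. It ran from 0.14 without WT library 4 to 0.46 without LRP1 KO library 3, was 0.49 with a pseudocount of 0.1, and turned negative with the macrophage (-0.64) and mesothelial (-0.17) scores as covariates, with no call in any of these fits. The coefficient of variation in WT was 41.8%, against a median of 9.52% over all tested genes, so the precision at this level was low. LRP1 KO library 4, which had endothelial markers at the WT level, held the highest Vwf value. Relative to Cdh5 in the same library, as a difference of log2(FPKM + 1), Vwf was at -2.50 to -1.63 in WT and at -3.95, -2.66, -3.93 and -1.40 in LRP1 KO.

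Letters of the promoters are shown for F2r, which rose, for Procr, its neighbour in estimate, and for F3, whose estimate was near 0, because these 3 hold a match to the binding sequence of AP-1, TGANTCA. The table of RefSeq promoters (GRCm38.p6) held 6 of the 8 genes, and the 250 bases before the RefSeq start were searched. Of the 3 genes shown, that start lies inside the GENCODE gene for Procr and F2r, by 100 and 21 bases, and the letters printed end where the GENCODE gene begins. They run from 5′ to 3′ on the gene's own strand, with the AP-1 matches in capitals, at chr13:95618488-95618716 (minus strand) for F2r, chr2:155750967-155751116 (plus strand) for Procr and chr3:121723287-121723536 (plus strand) for F3.
F2r: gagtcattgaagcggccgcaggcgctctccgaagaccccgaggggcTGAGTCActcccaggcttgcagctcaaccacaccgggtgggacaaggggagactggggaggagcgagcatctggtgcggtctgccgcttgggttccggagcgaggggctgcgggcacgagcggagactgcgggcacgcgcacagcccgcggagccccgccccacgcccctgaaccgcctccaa
Procr: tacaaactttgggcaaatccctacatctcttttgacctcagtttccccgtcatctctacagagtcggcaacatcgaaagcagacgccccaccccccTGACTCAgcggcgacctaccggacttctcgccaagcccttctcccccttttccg
F3: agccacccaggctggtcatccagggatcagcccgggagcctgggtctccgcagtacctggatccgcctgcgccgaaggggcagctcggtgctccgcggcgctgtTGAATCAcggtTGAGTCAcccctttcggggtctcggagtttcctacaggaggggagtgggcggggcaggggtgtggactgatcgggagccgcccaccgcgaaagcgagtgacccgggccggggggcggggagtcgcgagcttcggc
F2r and Procr held 1 match each and F3 held 2, of which 1 overlaps the letters CACCC, the core that KLF factors bind. No match was found in the promoters of Tfpi, Gas6 or Pros1, and 6.75% of all 32817 promoters of this length hold at least 1 on either strand, which for this motif reads as the same letters. Tfpi had 2 promoters. Of the 250 bases searched, 16 lay inside the GENCODE gene for promoter 1 and all 250 for promoter 2. The core bound by FoxO factors, GTAAACA, was searched on both strands and was in none of the promoters of these genes, against 3.16% of all promoters. The promoters were chosen with the expression values known, and a match is a description of letters and not a binding site. Promoters of Vwf and Thbd were not analysed here.

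Ratios within a library, taken as differences of log2(FPKM + 1), were compared for 4 pairs of genes. The pseudocount of 1 is small beside most of these levels but close to that of Vwf. The mean log2 ratio of F3 to Tfpi was 0.12 ± 0.15 in WT and 0.35 ± 0.12 in LRP1 KO (SD, n = 4 each), a difference of 0.22 with an exact permutation p of 0.0857 and 0.171 after Benjamini-Hochberg adjustment over the 4 pairs. For Gas6 to Pros1 the ratio was 3.93 ± 0.30 in WT and 3.50 ± 0.16 in LRP1 KO, a difference of -0.43 with the same exact permutation p of 0.0857 and adjusted p of 0.171. Thbd to Procr differed by -0.08 (exact permutation p 0.771, adjusted 0.771) and Vwf to Cdh5 by -0.90 (exact permutation p 0.257, adjusted 0.343), or by -0.79 with a pseudocount of 0.1 and by -1.43 without LRP1 KO library 4. None of the 4 passed, but a single ratio at the smallest possible p of 0.0286 would have an adjusted p of 0.114, so this design could not have called 1 ratio alone.

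Relative to the endothelial score of the same library, no gene kept its groups apart. The mean log2 difference between LRP1 KO and WT was -0.31 for Thbd, -0.23 for Procr and -0.24 for F2r on this relative scale, and -1.33 for Gas6, -1.001 for Tfpi, -0.89 for Pros1, -0.78 for F3 and -0.49 for Vwf. LRP1 KO libraries 1 to 3 had the highest endothelial scores. Thbd relative to the endothelial score was 2.34, 2.89 and 2.53 in LRP1 KO libraries 1 to 3 and 3.68 in library 4, against 3.03 to 3.31 in WT. Relative to the mesothelial score the Thbd and F2r groups were apart, both higher in LRP1 KO, by 0.76 and 0.83 on the log2 scale, and those of the other 6 genes overlapped.

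The genes varied together in part. Over the 8 libraries, Pearson correlations of log2(FPKM + 1) were 0.95 for Tfpi with Gas6, 0.90 for Thbd with F2r, -0.95 for F2r with Gas6 and -0.93 for Procr with Tfpi. With the group means removed these were 0.87, 0.60, -0.89 and -0.88, and the 8 points share the normalization and the spread in endothelial score. The tested genes whose pattern was most like Thbd over the 8 libraries were Txnl1, Gdf6 and Cdkn1a (r of 0.994, 0.987 and 0.986), those most like F2r were Slc25a40, Ddah1 and Lrrc59 (0.994, 0.994 and 0.993) and those most like Procr were Pigm, Zw10 and Fkbp1a (0.992, 0.988 and 0.987). For Tfpi they were Lrig3, Ccng2 and Foxo3 (0.994, 0.992 and 0.988), for Gas6 Atp1b2, Pcbp2 and Cmtm3 (0.991, 0.989 and 0.986), for Pros1 Eln, Sh3pxd2b and Limch1 (0.977, 0.970 and 0.964), for F3 Stt3b, Ptgfrn and Foxn3 (0.959, 0.954 and 0.949) and for Vwf Slc1a6, Agpat2 and Tbkbp1 (0.971, 0.929 and 0.921). These were picked as the highest values among all tested genes, over 8 libraries in 2 groups, and are a description only.

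The rest of the pathway was read from 8 lists with 49 genes, of which 23 were tested. Of these 23, 4 were called higher and 2 lower in LRP1 KO, and the median log2 fold change was 0.06, beside 13.6% of all tested genes called (6.27% higher and 7.31% lower) and a median of -0.0091. Of the 23, 8 were called higher and 4 lower without LRP1 KO library 4, a fit in which 26.2% of all tested genes were called (12.3% higher and 13.9% lower). None of the 15 clotting factors passed the filter, and none exceeded 4.82 FPKM in any library.

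Of the 10 circulating and vessel wall anticoagulants 5 were tested, of which 2 were called higher, 2 lower and 1 not. The gene not called, Anxa5, had the highest level of the list, at means of 291 FPKM in WT and 365 in LRP1 KO. Its log2 difference was 0.31 (limma adjusted p 0.0696). Without LRP1 KO library 4 Anxa5, named after its values were seen, was called higher (0.42, limma adjusted p 0.00198). Serpind1, which encodes the thrombin inhibitor heparin cofactor II, had FPKM values of 2.96, 5.22, 3.56 and 2.60 in WT against 0.386, 0.461, 0.822 and 1.31 in LRP1 KO, lower in every LRP1 KO library. It fell to 20.7% of the WT mean, with a log2 fold change of -1.39 (SE 0.20) and a limma adjusted p of 0.00482, and the call held in all 8 fits that left out a library but ended with the endothelial (-1.08, limma adjusted p 0.0934), macrophage (-1.73, 0.0896) and mesothelial (-1.49, 0.243) scores. Tfpi2, a relative of Tfpi that encodes a Kunitz protease inhibitor, had FPKM values of 5.54, 3.98, 6.43 and 6.40 in WT against 17.0, 10.4, 14.6 and 8.27 in LRP1 KO. It rose with a log2 fold change of 1.01 (SE 0.21) and a limma adjusted p of 0.0188, opposite in sign to the Tfpi estimate. Serpine2, the gene of protease nexin-1, which inhibits thrombin, rose from 17.2 ± 2.92 to 24.3 ± 0.931 FPKM (SD, n = 4 each; log2 fold change 0.49, SE 0.10, limma adjusted p 0.0190). Hs3st1, whose enzyme makes the heparan sulfate that binds antithrombin, fell from 15.3 ± 1.10 to 10.8 ± 1.80 FPKM (SD, n = 4 each; log2 fold change -0.48, SE 0.11, limma adjusted p 0.0229). The calls of Tfpi2, Serpine2 and Hs3st1 ended in 2, 4 and 6 of the 8 fits that left out a library. With the endothelial, macrophage, fibroblast and mesothelial scores in turn, Tfpi2 was at 0.53, 1.92, 0.67 and 1.14 and Hs3st1 at -0.27, -0.94, -0.36 and -0.54, none of them called. Serpine2 was called with the fibroblast score (0.57, limma adjusted p 0.0422) and not with the endothelial (0.53), macrophage (0.25) and mesothelial (0.23) scores.

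The TAM receptors were not called. Axl averaged 253 FPKM in WT and 246 in LRP1 KO (log2 difference -0.04, limma adjusted p 0.827), Mertk 14.3 and 13.8 (-0.05, limma adjusted p 0.800) and Tyro3 2.36 and 2.74 (0.16, limma adjusted p 0.175), with the Tyro3 groups just apart. Among the other protease-activated receptors only F2rl1, the gene of PAR2, was tested. It had FPKM values of 0.557, 0.492, 1.33 and 0.803 in WT against 4.57, 1.41, 3.80 and 0.557 in LRP1 KO, with a log2 difference of 0.84 (SE 0.37) and a limma adjusted p of 0.146, or 1.18 and 0.0167 without LRP1 KO library 4. With a covariate the difference was -0.14 (endothelial score), 0.27 (fibroblast score), 0.78 (mesothelial score) and 2.47 (macrophage score), none of them called. F2rl2 and F2rl3 did not pass the filter.

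None of the 6 tested partners and storage granule proteins of von Willebrand factor was called. Neither were the 2 tested genes of gamma-carboxylation, the reaction that makes the Gla domains of protein S and GAS6. Selp and Stxbp5 of the first list were called higher without LRP1 KO library 4 (0.61 and 0.44, limma adjusted p 0.0310 and 0.0270) and Rab3d lower (-0.42, limma adjusted p 0.0215), genes named after their values were seen. Of the 4 tested endothelial inhibitors of platelets 1 was called, Entpd1, the gene of the ectonucleotidase CD39 that breaks down ADP. It had FPKM values of 2.08 to 2.74 in WT against 16.1, 9.14, 11.3 and 2.40 in LRP1 KO, with a log2 fold change of 1.48 (SE 0.41) and a limma adjusted p of 0.0449 that was lost in 7 of the 8 fits that left out a library. LRP1 KO library 4 was in the WT range. Without that library the log2 fold change was 1.96 (limma adjusted p 0.000338), and Ptgs1 of the same list, named after its values were seen, was called lower (-0.27, limma adjusted p 0.0412). With a covariate the Entpd1 estimate was 0.31 (endothelial score), 0.76 (fibroblast score), 1.40 (mesothelial score) and 3.04 (macrophage score), none of them called. Klf4, a transcription factor known to raise thrombomodulin, rose from 22.6 ± 2.47 to 31.3 ± 5.66 FPKM (SD, n = 4 each; log2 fold change 0.44, SE 0.13, limma adjusted p 0.0474), a call also lost in 7 of these 8 fits, with estimates of 0.33 to 0.53 over the 8. It was lost as well with each marker score as a covariate, at estimates of 0.24 (endothelial), 0.38 (fibroblast), 0.34 (mesothelial) and 0.88 (macrophage). The other gene of that list was not called.

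**Figure D4:**
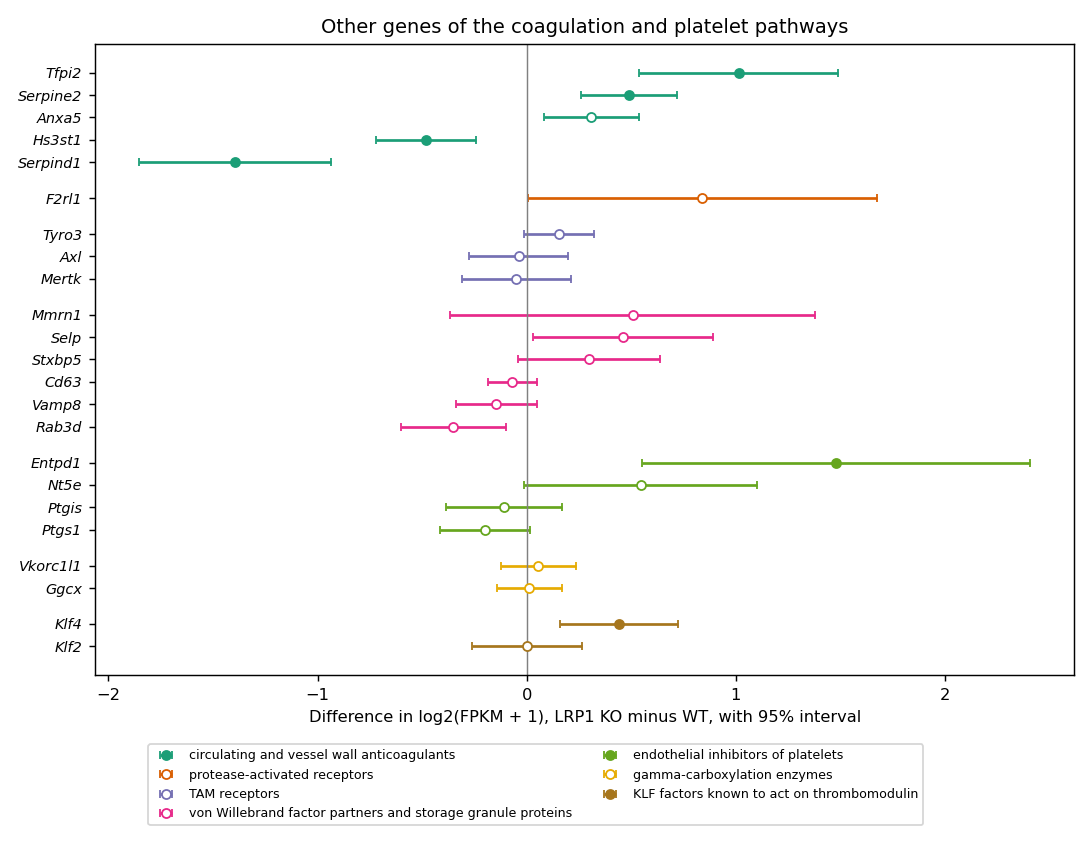
Log2 fold change in LRP1 KO against WT of the tested genes of the pathway lists, on the log2(FPKM + 1) scale with 95% confidence intervals from limma, grouped and coloured by list, with filled points for called genes. Serpind1 at -1.39 and Hs3st1 at -0.48 were called lower and Tfpi2, Serpine2, Entpd1 and Klf4 were called higher.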

How the data were processed

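RNA sequencing of 8 libraries was used, 4 LRP1 KO and 4 WT, with groups and replicate numbers taken from the sample titles. The authors deposited 1 table of FPKM values per gene and library. The submitters' processing notes name TopHat2, Cufflinks and mm10, while the study's methods name trimGalore, STAR, featureCounts and a count-based test. Library sums of 503571 to 504112 and the same highest value of 7793 in each library show quantile normalization of the deposited values, so depth and counting error are unknown and a broad shift in 1 direction cannot be seen. The strand setting was not given in the sources used here.

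Expression was analysed as log2(FPKM + 1), so fold changes understate those of low genes. Genes at 1 FPKM or more in at least 4 libraries (11389 of 22520) were fitted with limma 3.58.1 in R 4.3.3 with group as the only term and a variance trend, in place of the count test planned for counts. P-values were adjusted over all tested genes by the Benjamini-Hochberg method, confidence intervals are unadjusted, and a call is an adjusted p under 0.05. Exact two-sided permutation tests used all 70 splits of 4 against 4. Marker scores average log2(FPKM + 1) over the genes of a list. The test was checked on simulated data. Positions are from GENCODE M21 (GRCm38). For the 8 genes, no stretch of 50 transcript bases was shared with another gene.

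The 8 genes, the pathway and marker lists and the promoters were chosen with earlier results of these data known. Named were the 8 genes, Lrp1, called genes of the pathway lists, the TAM and protease-activated receptors, markers from the first 4 of each list and the 3 tested genes with the highest correlation with each gene. Alternatives were a pseudocount of 0.1, no filter, rescaled libraries, no variance trend, a replicate block, marker scores as covariates and leaving out each library. The fibroblast and mesothelial covariates were chosen after seeing the data, as were the counts for each list without LRP1 KO library 4.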

Additional observations from a re-analysis of the deposited data

How the results depend on the processing

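Thbd and F2r were called with a pseudocount of 0.1, no filter, rescaled libraries, no variance trend and the replicate block. Leaving out 1 library gave 433 to 2959 called genes overall and 1 to 5 of the 8 genes, with the high values without LRP1 KO library 4. Marker covariates ended most calls: of all tested genes 178 were called with the endothelial, 42 with the macrophage, 356 with the fibroblast and 14 with the mesothelial score, in place of 1547, and of the 8 genes 0, 0, 1 and 0. The macrophage and mesothelial scores were themselves apart between groups, and the median SE was 0.114 with the endothelial, 0.210 with the macrophage and 0.155 with the mesothelial score. The estimate changed sign for Vwf with the macrophage (-0.64) and mesothelial score (-0.17), for F3 with the same scores (-0.17 and -0.14), for Pros1 with the endothelial and fibroblast scores (0.15 and 0.13), for F2rl1 with the endothelial score (-0.14), for Axl with the endothelial and fibroblast scores (0.10 and 0.10) and for Mertk with the macrophage and mesothelial scores (0.26 and 0.23). None of these was called, and the cause was not tested. The estimate of Thbd was 0.39, 0.61 and 0.57 with the endothelial, macrophage and mesothelial scores and that of F2r 0.34, 0.96, 0.42 and 0.56 with the endothelial, macrophage, fibroblast and mesothelial scores, none of them called. Over the fits without 1 library, log2 differences ran from 0.14 to 0.46 for Vwf, -0.17 to -0.0064 for Pros1, -1.43 to -0.58 for the ratio of Vwf to Cdh5, -0.032 to 0.11 for F3, 0.42 to 0.76 for Procr, -0.26 to -0.17 for Tfpi, 0.47 to 0.65 for F2r, -0.64 to -0.41 for Gas6, 0.76 to 1.18 for F2rl1 (over only the 4 such fits in which it passed the filter, so not without WT library 3 or LRP1 KO library 1, 2 or 3), -0.13 to 0.036 for Axl, -0.14 to 0.044 for Mertk and -0.24 to 0.029 for the ratio of Thbd to Procr. Whether replicate numbers pair the libraries was not settled. Deviations of same-numbered libraries correlated at 0.158, 0.141, 0.340 and -0.312, and those of differently numbered libraries at -0.404 to 0.377. LRP1 KO libraries 1 to 3 each correlated highest with the WT library of the same number, and LRP1 KO library 4 with WT library 2. With the replicate block 1013 of all tested genes were called and Thbd and F2r among the 8, and the block ended the calls of Hs3st1, Entpd1 and Klf4 (limma adjusted p 0.0583, 0.0641 and 0.0543). The calls of Entpd1 and Klf4 also ended with no filter (0.0896 and 0.0851) and that of Klf4 with no variance trend (0.0537). Quantile normalization leaves no depth from which a counting error could be had.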

Other observations

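Among the clotting factors that did not pass the filter, 3 are named here after their values were seen. F7, which encodes the factor that tissue factor binds, had FPKM values of 0.113 to 0.225 in WT against 0.476 to 0.821 in LRP1 KO, with an exact permutation p of 0.0286, the smallest that 4 against 4 allows and not adjusted for the 15 factors. F10 averaged 0.0831 ± 0.0556 FPKM in WT and 0.554 ± 0.392 in LRP1 KO, and F13a1, known from macrophages and platelets, 0.336 ± 0.210 and 1.99 ± 2.07 (SD, n = 4 each). The groups of F10 and F13a1 overlapped, with exact permutation p of 0.0571 and 0.143. The macrophage list summed to 90.9 to 117 FPKM in WT and 245 to 596 in LRP1 KO, and its part in these values was not tested.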
